A study of Mus musculus with 10 samples.

Results

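DNA methylation was read here at the 10 genes Ahr, Ahrr, Cyp1a1, Cyp1b1, Tiparp, Nfe2l2, Keap1, Nqo1, Hmox1 and Gclc, which belong to the aryl hydrocarbon receptor and Nrf2 systems, in lung DNA of mice with ovalbumin (OVA)-induced asthma. The members were chosen by gene name, and a window was counted as theirs where it overlapped the RefSeq span of the gene or the 5 kb on either side of it. This gave 179 of the 446336 windows of the whole table, each 1000 bp long with a step of 500 bp. Because neighbouring windows overlap and sometimes held exactly the same calls, 173 of the 179 were distinct from the window before them. The data are bisulfite sequencing of captured DNA (SureSelect Methyl-seq), and a methylation level is 100 times the methylated CpG calls divided by all CpG calls of a window in 1 mouse, given only where that mouse had at least 20 calls.

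All animals were 8-week-old BALB/c mice, and none carried an engineered allele. The 3 Saline mice were controls. The 3 OVA mice were sensitized with 50 µg of OVA by injection with an alum adjuvant and challenged through the nose with 25 µg. The 4 mice labelled Herb had the same sensitization and challenge and received by mouth 200 mg/kg of an ethanol extract of Descurainia sophia seeds (DSE), a traditional remedy for cough and wheezing. The labels say only that these 4 mice had a herbal treatment, and the extract is taken from the study's methods, which describe no other herb. No group received the extract without OVA, so a difference between Herb and OVA is a difference among challenged mice. Whole lung was sampled, and in such tissue a change of methylation within a cell type cannot be told apart from a change in the shares of cell types.

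The aryl hydrocarbon receptor, Ahr, is a ligand-activated transcription factor of the cytosol. Bound to a planar aromatic ligand it enters the nucleus, pairs with Arnt and binds short elements with the core GCGTG, which switch on Cyp1a1 and Cyp1b1, the cytochrome P450 enzymes that oxidise such ligands, and the feedback inhibitors Ahrr, the receptor repressor, and Tiparp, a mono-ADP-ribosyltransferase. Nfe2l2 encodes Nrf2, which Keap1 holds and delivers for degradation until oxidants or electrophiles modify Keap1. Free Nrf2 pairs with small Maf proteins on antioxidant elements, written TGACNNNGC, at Nqo1 (a quinone reductase), Hmox1 (heme oxygenase) and Gclc (the catalytic subunit of the first enzyme of glutathione synthesis). The 2 systems meet at Nqo1, which both can induce, and in the lung both handle inhaled smoke, particles and oxidants.

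The sequences that matter for these loci are given 5′ to 3′ on the mm10 (GRCm38) build. The Nqo1 intron stretch is shown because it lies in the windows with the clearest change from saline, with every CpG in capitals. The Cyp1a1 upstream stretch is shown because it is the part of the measured DNA of these genes densest in receptor cores, and there the capitals mark the cores GCGTG or CACGC, the same core on the other strand. In the 4 promoters, which are the 250 bases before the RefSeq start and were taken from RefSeq, capitals mark receptor cores or an antioxidant core (TGACNNNGC or GCNNNGTCA). Each receptor core contains a CpG and can therefore be methylated itself.
Nqo1 intron, chr8:107397697-107397996, plus strand: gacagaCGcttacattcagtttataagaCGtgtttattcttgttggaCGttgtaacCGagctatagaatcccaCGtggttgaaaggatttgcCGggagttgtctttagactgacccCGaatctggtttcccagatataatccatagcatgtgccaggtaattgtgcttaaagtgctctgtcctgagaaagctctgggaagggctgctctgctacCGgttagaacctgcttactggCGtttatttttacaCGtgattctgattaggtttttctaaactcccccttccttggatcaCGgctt
Cyp1a1 upstream, chr9:57696258-57696557, plus strand: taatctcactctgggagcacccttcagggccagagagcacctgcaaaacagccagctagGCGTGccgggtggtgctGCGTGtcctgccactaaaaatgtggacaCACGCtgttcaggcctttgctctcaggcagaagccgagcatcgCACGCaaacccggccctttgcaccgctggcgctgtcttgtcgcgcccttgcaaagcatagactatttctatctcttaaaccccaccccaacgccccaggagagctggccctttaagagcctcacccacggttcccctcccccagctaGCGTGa
Cyp1a1 promoter, chr9:57697363-57697612, plus strand: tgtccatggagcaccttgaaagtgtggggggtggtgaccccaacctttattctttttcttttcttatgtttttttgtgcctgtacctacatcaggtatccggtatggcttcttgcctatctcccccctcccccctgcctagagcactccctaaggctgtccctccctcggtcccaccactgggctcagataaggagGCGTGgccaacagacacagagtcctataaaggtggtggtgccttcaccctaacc
Cyp1b1 promoter, chr17:79715062-79715311, minus strand: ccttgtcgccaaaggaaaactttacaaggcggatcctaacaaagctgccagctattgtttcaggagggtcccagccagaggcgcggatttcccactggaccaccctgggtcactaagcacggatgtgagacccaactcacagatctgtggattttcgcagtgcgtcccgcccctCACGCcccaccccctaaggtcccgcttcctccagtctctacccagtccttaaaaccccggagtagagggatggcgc
Ahrr promoter, chr13:74292332-74292581, minus strand: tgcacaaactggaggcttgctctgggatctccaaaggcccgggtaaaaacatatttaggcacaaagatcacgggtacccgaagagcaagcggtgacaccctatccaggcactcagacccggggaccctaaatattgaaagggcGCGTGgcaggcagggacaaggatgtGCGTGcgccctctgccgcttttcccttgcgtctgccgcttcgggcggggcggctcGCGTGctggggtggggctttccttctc
Nfe2l2 promoter, chr2:75704664-75704913, minus strand: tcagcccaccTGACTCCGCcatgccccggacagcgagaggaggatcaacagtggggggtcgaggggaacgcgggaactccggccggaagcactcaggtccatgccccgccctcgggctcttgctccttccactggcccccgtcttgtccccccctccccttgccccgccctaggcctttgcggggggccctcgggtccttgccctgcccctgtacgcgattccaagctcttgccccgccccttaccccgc

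Promoters of 7 of the 10 genes were in the RefSeq table: Ahrr, Cyp1a1, Cyp1b1, Tiparp, Nfe2l2, Keap1 and Nqo1. The 250 bases held 3 receptor cores at Ahrr and 1 each at Cyp1a1, Cyp1b1, Tiparp and Keap1, with none at Nfe2l2 or Nqo1. Of all 32851 promoters of this length, 28.2% held a receptor core and 10.2% an antioxidant core, and among the 7 only Nfe2l2 held the latter. In the 300 bases of the Cyp1a1 upstream stretch there were 5 receptor cores, and the whole 1000-bp window around it held 10. Of the member windows, 107 (59.8%) held a receptor core against 48.4% of all windows, and 60 (33.5%) an antioxidant core against 31.7%. A match of letters is a description of the DNA and not a binding site.

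The total of CpG calls per mouse ranged from 306656737 to 410836272 over the overlapping windows of the whole table. Member windows were read more deeply than the table as a whole, with a median of 715 calls per mouse and window against 409, and the median of a single mouse lay between 601 and 881. Of the 179 windows, 173 had at least 20 calls in all 10 mice. Within a group, pairs of mice differed on average by 2.62 to 3.72 times the variance that sampling of calls gives, so a test on pooled calls treats the mice as more alike than they were. For that reason the pooled test is read beside limma, which uses the spread between mice, and beside whether the values of the groups overlapped. Intervals given below cover counting error only and leave out the spread between mice. They treat every call as independent, which calls on 1 read are not, so they can be too narrow. The labels give no sequencing batch, and nothing in them says whether the libraries were made together.

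In saline lung, windows near the starts were mostly low and those in exons and introns mostly high. Tiparp and Hmox1 were exceptions, with no window mean above 18.3% and 26.1%, and no measured window covered the outer start of Cyp1a1. Of the windows with a saline level, 42.7% were under 20% methylated, against 21.6% of all windows of the table, and 15.7% were over 80%, against 23.2%. These include 19 windows that overlap another gene. Among them, 4 windows in the 3′ flank of Ahrr overlap Exoc3 and had saline means of 0.955 to 5.69%. By place, the 52 windows within 1 kb of an annotated start had a saline median of 4.45%, the 51 purely intronic windows 63.6% and the 29 exonic windows 78.7%. Across 178 member windows, methylation was lower where there were more CpGs (Spearman's rho = -0.48, against -0.33 over all windows), which is a description, since overlapping windows share calls.

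**Figure D1:**
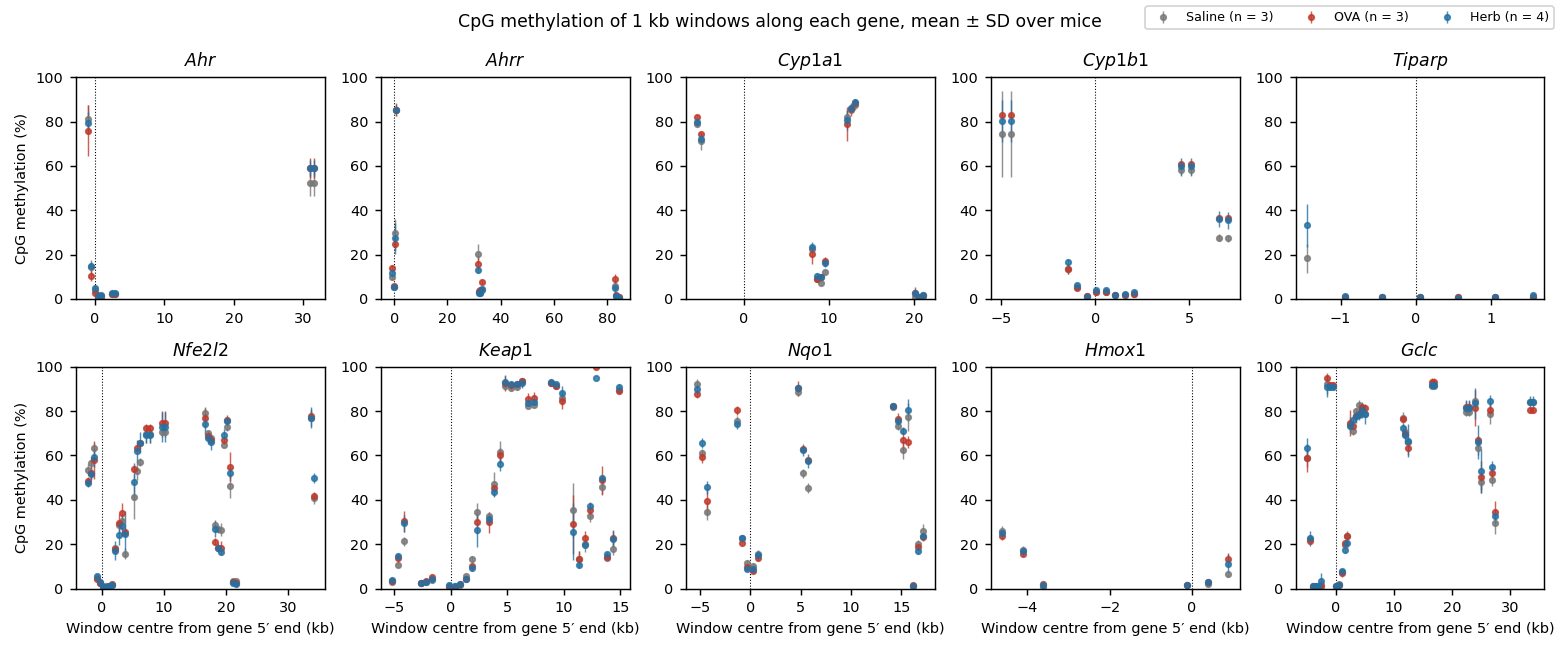
CpG methylation (%) of each 1000-bp window against the distance of its centre from the gene's 5′ end (kb, positive within the gene), as mean ± SD of the Saline, OVA and Herb mice. Around the dotted line the genes other than Cyp1a1 have low windows, the flanks and bodies reach 90% in Keap1, Nqo1 and Gclc, and the group means lie close together beside this range.

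The unmethylated stretch around the start, counted as the unbroken run of windows under 20% in saline, was widest at Cyp1b1 (4500 bp), Tiparp (4000 bp) and Nfe2l2 (4000 bp), followed by Keap1 with 3000 bp. It was 2500 bp at Ahr and Gclc, 2000 bp at Nqo1 and Hmox1 and 1500 bp at Ahrr. For Cyp1a1 no stretch was counted, because no window was measured at its outer start. Its RefSeq span begins at an outer start, chr9:57687928, and the window nearest to it lay 4928 bp upstream, overlapped Cyp1a2 and was about 70% methylated. The inner start of Cyp1a1, at which the second RefSeq transcript begins, lay inside the measured windows. The window over it was under 20% methylated in every mouse, with a mean of 12.3% in Saline.

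The main question of the design was whether the extract changed methylation of these genes in challenged lung, that is Herb against OVA. No member window passed the test of pooled calls (adjusted p under 0.01 and at least 10 percentage points). The count was 0 of 177 tested windows in either direction, where 0.898% of all windows were called higher and 0.725% lower. By limma, too, 0 member windows passed an adjusted p of 0.05 (0.356% of all windows did), the lowest adjusted p being 0.101, and 14 had an unadjusted p under 0.05. The median difference over the member windows was -0.0429 points with means over mice, and 168 of the 177 windows differed by less than 5 points. Over all windows the median was -0.0354 points on pooled calls, a different measure. The Herb and OVA mice did not overlap in 8 windows where Herb was higher (4.52%) and 6 where it was lower (3.39%), against 5.72% and 4.74% of all windows.

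At the receptor gene itself the start-site window, which is the window whose centre is nearest to the gene's 5′ end, was one of those 14. This window, chr12:35534501-35535500, covers exon 1 of Ahr and holds 93 CpGs and 6 receptor cores. Methylation was 3.90, 3.49 and 4.51% in the Saline mice, 2.56, 2.72 and 2.44% in the OVA mice, and 4.65, 6.58, 4.82 and 3.74% in the Herb mice. Every OVA mouse lay below every mouse of both other groups, while Saline and Herb overlapped. Herb exceeded OVA by 2.38 ± 0.599 points (SE), with an adjusted p of 1.77e-06 on pooled calls and of 0.101 by limma. The exact permutation test over mice gave p = 0.0571, where the smallest p that 3 against 4 mice can give is 0.0286. The OVA mice were lower than Saline by 1.39 points, with OVA minus Saline -1.39 ± 0.305 and an exact permutation p of 0.1, the smallest possible with 3 against 3. These differences are far under the 10-point threshold, and the comparisons share the OVA mice.

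Ahrr, the repressor that competes with Ahr for its partner and its elements, had the opposite order in 2 windows at an inner start. There, 32830 bp into the gene, RefSeq places the first exons of predicted Ahrr transcripts, and 4 windows across them had group means under 25%. In the window chr13:74259001-74260000 the Saline mice had 3.92, 3.63 and 4.37%, the OVA mice 6.56, 8.50 and 8.05%, and the Herb mice 2.96, 5.79, 5.30 and 3.68%. Here every OVA mouse lay above all mice of the other groups. The difference of Herb from OVA was -3.27 ± 0.888 points (pooled calls, adjusted p = 7.83e-07; limma, adjusted p = 0.22; exact permutation p = 0.0286), and that of OVA from Saline was 3.73 ± 0.626 points (limma adjusted p = 0.0686). The next window, 500 bp on, holds 43 CpGs and 6 receptor cores. It had 2.38 to 2.62% in Saline, 3.76 to 4.02% in OVA and 2.12 to 3.23% in Herb, so that the OVA mice again stood apart. The other 2 windows did not show this order. In chr13:74260001-74261000 the means were 3.58% in Saline, 3.36% in OVA and 2.51% in Herb. Every Herb mouse there lay below all OVA and Saline mice (limma adjusted p = 0.446 against OVA and 0.106 against Saline). In chr13:74260501-74261500 the means were 20.4, 15.8 and 12.9%, with Herb minus Saline at -7.53 ± 2.61 points and no overlap (limma adjusted p = 0.0698). At the main start of Ahrr, chr13:74292001-74293000, no group stood apart, with means of 5.41% in Saline, 5.91% in OVA and 5.42% in Herb. The Ahr and Ahrr windows were singled out after their values were seen.

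**Figure D2:**
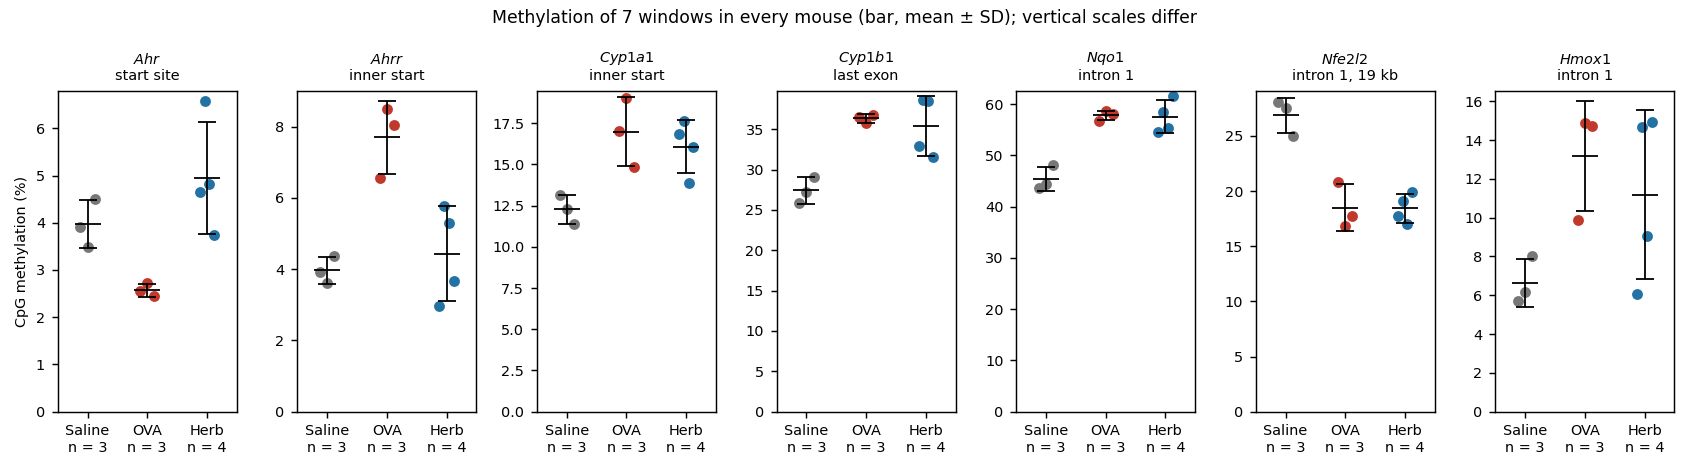
CpG methylation (%) of 7 windows in each mouse of the Saline, OVA and Herb groups, with mean ± SD as bars and a vertical scale of its own in each panel. At the Ahr start the 3 OVA mice lie lowest and at the Ahrr inner start highest, while at Cyp1a1, Cyp1b1, Nqo1 and the Nfe2l2 intron OVA and Herb lie together, apart from Saline.

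Other members held single windows where Herb and OVA did not overlap and the pooled test gave an adjusted p under 0.01, all below 10 points. The 3′ flank of Nfe2l2, chr2:75670001-75671000, had the largest of these differences. Its methylation was 39.2, 43.4 and 41.9% in OVA and 46.8, 50.9, 49.4 and 52.4% in Herb, with 43.5, 38.5 and 40.3% in Saline, so Herb stood above both other groups. The difference of Herb from OVA was 8.38 ± 1.70 points (pooled calls, adjusted p = 2.31e-08; limma, adjusted p = 0.242). This window lies in the flank past the end of Nfe2l2 and overlaps no other RefSeq gene. Just upstream of Cyp1b1, chr17:79715501-79716500 had 4.04 to 5.70% in OVA and 5.92 to 6.73% in Herb, a difference of 1.37 ± 0.511 points. In the first intron of Gclc, chr9:77755501-77756500 had 19.8 to 22% in OVA and 15.8 to 18.7% in Herb, a difference of -3.07 ± 0.999 points. By limma the adjusted p was 0.49 for the Cyp1b1 window and 0.522 for the Gclc window.

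Nearest to a call by size was a window in the 3′ flank of Nqo1, chr8:107387001-107388000. The OVA mice 2 and 3 had 67.9 and 64.3%, the Herb mice 76.5 to 87.6% and the Saline mice 70.5 to 83.2%. OVA mouse 1 had 16 calls there, too few for a level, so the difference of 14.4 ± 3.09 points rests on 2 OVA mice. Its adjusted p was 0.0455 on pooled calls and 0.305 by limma, and it was not called.

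**Figure D3:**
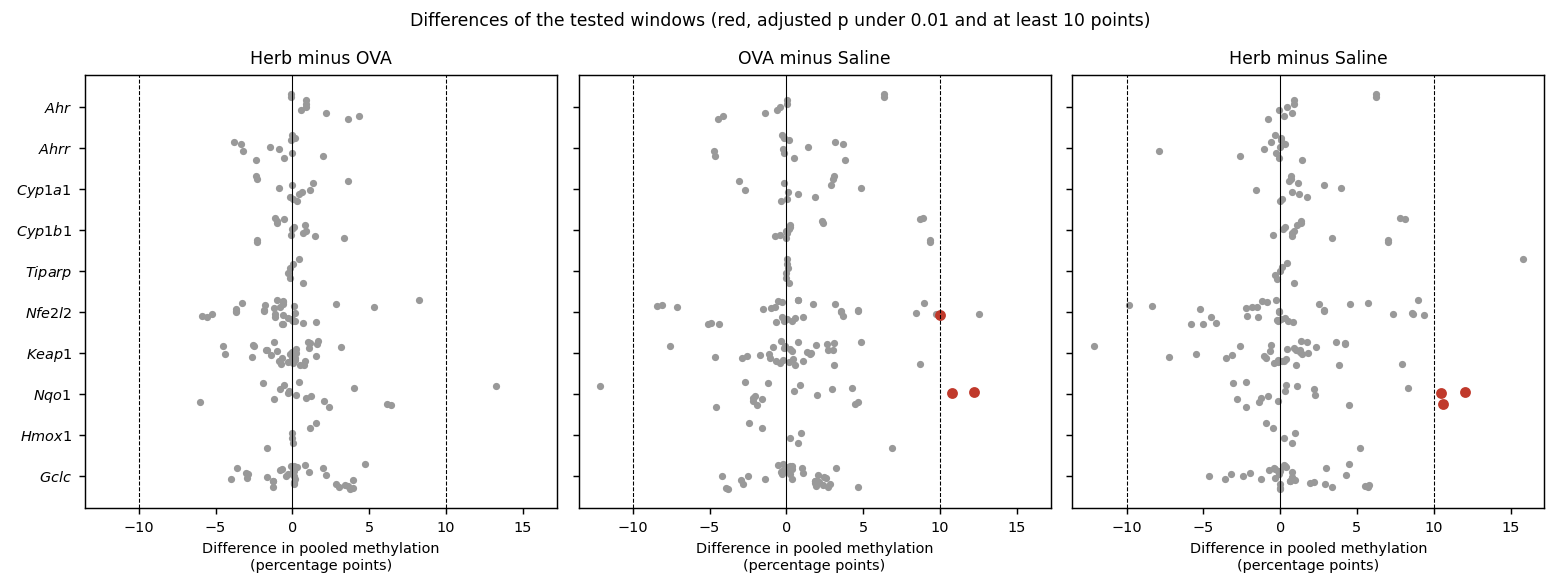
Difference in methylation (percentage points) of each tested window, 1 dot per window, by gene, for Herb minus OVA, OVA minus Saline and Herb minus Saline; dashed lines mark 10 points and red dots are called windows. Herb minus OVA has no red dot, and the red dots of the other panels lie at Nqo1 and, in OVA minus Saline, at Nfe2l2.

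OVA against Saline asks what allergic inflammation did at these genes. Of 177 tested member windows 3 were called higher and 0 lower, while 4.75% of all windows were called higher and 2.56% lower. By limma 3 windows passed (1.69%, against 2.98% of all windows). OVA and Saline did not overlap in 25 windows where OVA was higher (14.1%) and 15 where it was lower (8.47%), against 17.9% and 9.03% of all windows. The median difference was 0.234 points over the members with means over mice, and 0.732 points over all windows on pooled calls. Members with 20 to 80% methylation in saline had a median difference of 2.12 points with means over mice, and those under 20% had 0.0647 points. All windows of 20 to 80% had 2.20 points on pooled calls.

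The windows called higher were in introns of the 2 Nrf2-side genes Nqo1 and Nfe2l2. In the first intron of Nqo1, 2 overlapping windows formed a region of 1500 bp, chr8:107397001-107398500, with centres 5704 and 5204 bp inside the gene, which contains the printed intron sequence. Its first window, with 18 CpGs and 1517 to 1992 calls per mouse, had 43.7, 44.5 and 48.1% in Saline, 56.8, 58.6 and 58.0% in OVA, and 54.6, 58.5, 55.4 and 61.6% in Herb. Methylation rose in OVA by 12.2 points on pooled calls (adjusted p = 2.24e-33), and the mean over mice differed by 12.4 ± 1.46 points. limma also called it (adjusted p = 0.0432), as it did the second window (10.8 points, limma adjusted p = 0.049). No receptor or antioxidant core was found in the first window and 1 receptor core in the second. With the mouse that had the fewest calls, 44.5% has a 95% Wilson interval of 42.0 to 47.0%. This is narrow beside the difference, although it takes the calls as independent.

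The Nfe2l2 window, chr2:75700501-75701500 in intron 1, rose by 10 points and thus met the threshold exactly. Its values were 17.4, 16.8 and 13.1% in Saline and 24.0, 25.2 and 27.3% in OVA, from 135 to 183 calls per mouse over 6 CpGs. In the Herb mice, values spread from 17.3 to 39.3% and overlapped both other groups. limma gave an adjusted p of 0.21 for OVA against Saline, and the window lost its call when the means were taken over mice (9.75 points).

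A further place in intron 1 of Nfe2l2 was lower in both challenged groups. The window chr2:75685501-75686500 had 28.1, 27.5 and 25% in Saline, 20.9, 16.8 and 17.8% in OVA, and 17.8, 19.1, 17.0 and 19.9% in Herb. Saline did not overlap either group. OVA differed from Saline by -8.38 ± 1.54 points and Herb from Saline by -8.42 ± 1.14 points, which limma called (adjusted p = 0.0465 and 0.0269), although both stay under 10 points. In the window before it, starting 500 bp earlier, Herb minus Saline was -10.1 ± 1.75 points as a mean over mice and -9.85 points on pooled calls (limma adjusted p = 0.0235). Intron 1 of Nfe2l2 thus held windows that were higher and windows that were lower than in saline.

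At the receptor target Cyp1a1, the differences from saline were smaller. The Cyp1a1 window chr9:57697001-57698000, which spans the inner start and holds the printed promoter, had 13.1, 12.3 and 11.4% in Saline, 17.0, 19 and 14.9% in OVA, and 16.8, 17.6, 13.9 and 16% in Herb. Saline lay below all challenged mice, by 4.71 ± 1.31 points for OVA and 3.81 ± 0.951 points for Herb. The window before it gave 7.14% in Saline, 9.91% in OVA and 9.89% in Herb. The window with the 10 receptor cores, starting another 500 bp upstream, had 8.23 to 9.79% in Saline, 7.42 to 10.4% in OVA and 8.60 to 11.5% in Herb, and all 3 groups overlapped. Neither of the first 2 windows passed limma for OVA against Saline (adjusted p = 0.104 and 0.0958).

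Cyp1b1 had its difference at the other end of the gene. In the last exon, chr17:79707501-79708500, Saline mice had 25.9, 27.3 and 29.1%, OVA mice 36.6, 35.7 and 36.8% and Herb mice 33.0, 38.6, 38.4 and 31.5%. The OVA difference was 8.93 ± 0.999 points and the Herb difference 7.97 ± 2.07 points, both with Saline apart from all other mice (limma adjusted p = 0.0785 and 0.0691). Hmox1 had 5.70, 6.15 and 8.02% in Saline and 9.90, 14.9 and 14.7% in OVA in its first intron, chr8:75094001-75095000, from 187 to 308 calls per mouse. There the Herb mice had 6.07, 14.7, 9.04 and 14.9%, overlapping both groups. Keap1 differed in exon 2 of its longer transcripts, chr9:21237001-21238000, where the means were 13.1% in Saline, 10.1% in OVA and 9.37% in Herb. In its upstream flank, chr9:21243001-21244000, which overlaps S1pr5, they were 21.3, 30.3 and 29.4%. None of these windows reached 10 points or passed limma.

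Herb against Saline compares treated, challenged mice with mice that had neither. Of 178 tested windows 3 were called higher and 0 lower, against 4.95% and 3.07% of all windows, and limma called 4 (2.25%, against 6.29% of all windows). Herb and Saline did not overlap in 23 windows where Herb was higher (12.9%) and 8 where it was lower (4.49%), against 16.1% and 7.86% of all windows. All 3 called windows were at Nqo1. The intron region rose by 12 points in its first window (adjusted p = 1.59e-38, limma adjusted p = 0.026), nearly as far as in OVA. The third was in the upstream flank, chr8:107407001-107408000, where Herb mice had 44.5, 42.2, 47.8 and 48.1% and Saline mice 31.3, 33.9 and 38.7%, and the OVA mice, at 40.0, 32.8 and 45.4%, overlapped both. This window rose by 10.6 points in Herb (adjusted p = 0.000204), but not by limma (adjusted p = 0.0808). Herb minus OVA in the first intron window was -0.257 ± 1.69 points.

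At the start-site windows the groups were close in nearly all genes. Methylation was at most 1.27% in every mouse at Tiparp, Nfe2l2 and Gclc, and 1.08 to 2.27% at Hmox1. Keap1 had 0.402 to 1.80% in 9 mice and 3.6% in Herb mouse 2, whose level comes from 361 calls and has a 95% Wilson interval of 2.12 to 6.06%. Cyp1b1 ranged from 1.85 to 4.63% with all groups overlapping. Leaving out Cyp1a1, whose start-site window lies 4928 bp upstream and had a mean of 71.0% in Saline, Nqo1 had the highest level of the start-site windows, with 10.1, 9.06 and 11.1% in Saline, 8.10, 7.14 and 8.69% in OVA, and 8.07, 9.61, 10.2 and 7.83% in Herb. OVA lay below Saline at Nqo1, by 2.13 points with an SE of 0.748 (exact permutation p = 0.1, the smallest possible). In all, OVA and Saline did not overlap at 3 of 10 start-site windows (Ahr, Keap1 and Nqo1), all lower in OVA. Over all windows, OVA was higher without overlap in 17.9% and lower in 9.03%. Herb and OVA did not overlap at 1 (Ahr, higher in Herb), against 5.72% of all windows higher and 4.74% lower. Herb and Saline did not overlap at 0, against 16.1% of all windows higher and 7.86% lower. limma called none of the start-site windows in any comparison.

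The window just upstream of the Ahr start, chr12:35535001-35536000, had the same order of group means without a clean separation. Its 29 CpGs were 13.2, 12 and 18.1% methylated in Saline, 8.94, 9.36 and 13.5% in OVA, and 15.1, 15.7, 16.1 and 12.1% in Herb. OVA mouse 3 lay within the other groups, and Herb minus OVA was 4.13 ± 1.70 points (pooled calls, adjusted p = 0.000526; limma, adjusted p = 0.466). In a coding exon farther into Ahr, chr12:35503501-35504500 was 46.5 to 58.5% methylated in Saline, 55.5 to 64.0% in OVA and 53.7 to 61.6% in Herb, and all groups overlapped.

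Tiparp had 7 windows, and its 6 tested Herb minus OVA differences lay between -0.282 and 0.655 points. The remaining window, 1447 bp upstream, had enough calls in no OVA mouse. There 2 Saline mice had 22.9 and 13.8% and the Herb mice 19 to 39.7%, so that Saline and Herb overlapped. Herb minus Saline was 14.8 points as a mean over mice, the largest of the member windows in that comparison. It rests on 2 Saline mice and was not called. Of the Tiparp windows 6 also overlap 4931440P22Rik, a gene on the opposite strand. Gclc had 35 windows and a steep step of methylation at its start. The window centred 535 bp upstream had 89.4 to 93.4% in all mice, while the start-site window 500 bp on had 0.49 to 1.27%. A second unmethylated stretch lay farther upstream of Gclc, where chr9:77750501-77751500, with 81 CpGs, had 0.612 to 0.755% in Saline, 0.765 to 1.07% in OVA and 0.912 to 1.23% in Herb. Herb minus OVA differences of the Gclc windows ran from -4.05 to 4.59 points and Herb lay below OVA without overlap in 2 of the 35, where 4.74% of all windows had this.

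**Figure D4:**
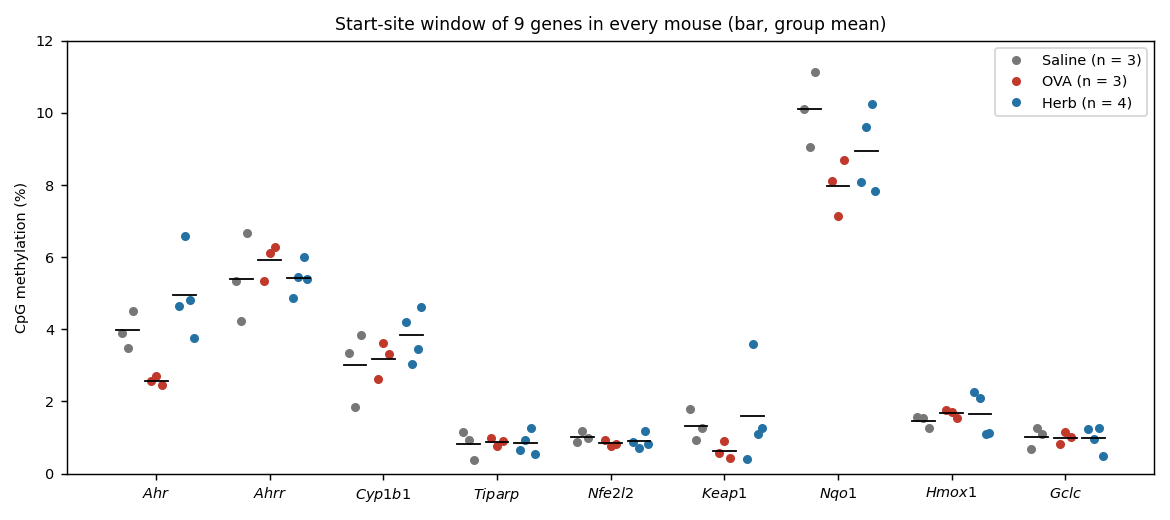
CpG methylation (%) of the start-site window in each Saline, OVA and Herb mouse for 9 genes, with the group mean as a bar; Cyp1a1 is left out because its nearest window lies 4928 bp upstream. Nqo1 lies highest at 7.14 to 11.1%, Ahr shows the 3 OVA mice below the others, and Tiparp, Nfe2l2 and Gclc do not exceed 1.27%.

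Calls of a gene were also pooled over its windows that do not overlap, to give 1 level per gene and mouse. By limma over 37008 genes, 2 members were higher in Herb than in OVA, Nfe2l2 and Gclc, where 18.8% of all genes were called. Nfe2l2 had 17.7, 20 and 18.7% in OVA and 22.7, 23.9, 23.3 and 22.3% in Herb, a difference of 4.26 points (limma adjusted p = 0.00818). Gclc had 27.0, 32.4 and 34.1% in OVA and 37.3, 36.5, 36.1 and 37.1% in Herb, 5.55 points (limma adjusted p = 0.0429). In Herb against Saline only Keap1 was called, with 3.56 points (limma adjusted p = 0.0412), against 25.8% of all genes, and in OVA against Saline none of the 10 (lowest adjusted p = 0.263, against 6.47% of genes).

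A pooled level also moves when reads shift between low and high windows, and such a shift was present. The share of a gene's calls that came from windows under 20% methylated was 65.9 to 69.2% in OVA and 57.2 to 62.2% in Herb for Nfe2l2, and 54.6 to 63.2% against 50.5 to 51.1% for Gclc. Over all windows of the table this share was 43.9 to 45.6% in OVA, 40.2 to 42.0% in Herb and 43.1 to 43.6% in Saline. When each window of a gene was given equal weight, Herb minus OVA was -0.458 points for Nfe2l2 and 0.645 points for Gclc, and 0 members were called by limma in that comparison (0.224% of genes were, and 1 member had an unadjusted p under 0.05). With equal weight none was called in OVA against Saline either (6.61% of genes, 2 members with an unadjusted p under 0.05), nor in Herb against Saline (11.5% of genes, 3 members). With equal weight, the levels in OVA exceeded those in Saline in all 10 genes, by 0.022 to 1.95 points, where the median of all genes was 0.995 points and that of the members 1.02 points.

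**Figure D5:**
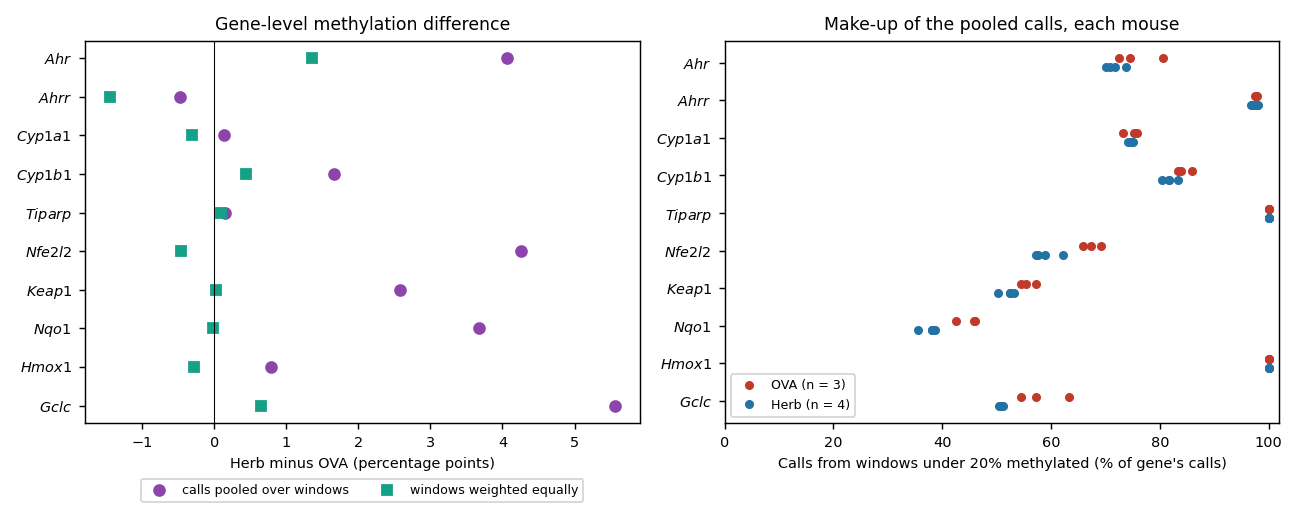
Left, gene-level Herb minus OVA difference (percentage points) with calls pooled over windows (circles) and with windows weighted equally (squares). Right, share of each gene's calls (%) from windows under 20% methylated in every OVA and Herb mouse. Pooled differences reach 5.55 points at Gclc while equal-weight differences stay between -1.45 and 1.35 points, and Herb mice all have lower shares than the OVA mice at Nfe2l2, Keap1, Nqo1 and Gclc.

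Around the members stand 42 other genes of the 2 systems, 12 on the receptor side (partners such as Arnt, chaperones such as Hsp90ab1, and targets) and 30 on the Nrf2 side (Keap1's ligase partners, small Maf proteins, glutathione and thioredoxin enzymes, NADPH enzymes and ferritins). Of their 806 windows tested in Herb against OVA, 3 were called higher (0.372%, against 0.898% of all windows) and 6 lower (0.744%, against 0.725%), all at Nrf2-side genes. Of 803 windows in OVA against Saline 30 were called higher (3.74%, against 4.75%) and 32 lower (3.99%, against 2.56%). Of 805 in Herb against Saline 30 were called higher (3.73%, against 4.95%) and 49 lower (6.09%, against 3.07%). By limma 4 of the 806 windows passed, at Ugt1a6a and Ugt1a6b, Mafg, Txnrd1 and Me1, where 0.356% of all windows did. In OVA against Saline limma called 28 (2.98% of all windows) and in Herb against Saline 54 (6.29% of all windows).
The 9 windows of Herb against OVA called on pooled calls lay at Cul3, Rbx1, Mafg, Slc7a11, Me1 and Abcc1, and limma called none of these 9. The largest increase was just upstream of Me1, malic enzyme, a source of NADPH: chr9:86696001-86697000 had 19.8, 30.5 and 16.6% in OVA and 42.0, 37.1, 42.4 and 36.2% in Herb, with 25.3 to 26.1% in Saline. Methylation there rose by 17.9 points on pooled calls (limma adjusted p = 0.0859). Cul3, the scaffold of the Keap1 ligase, fell by 11.3 points inside the gene, from 56.2, 64.3 and 53.2% in OVA to 45.4 to 48.4% in Herb, which overlapped the 41.2 to 49.2% of Saline (limma adjusted p = 0.221). Abcc1, a glutathione-conjugate exporter, held 3 of the 6 windows called lower, none of them called by limma (adjusted p of 0.261 to 0.422). In 1 of the 3, Herb mouse 1 had 18 calls, too few for a level, so that its difference rests on 3 Herb mice. The Abcc1 windows starting at 14409501 and 14410001 overlap and had the same levels in every mouse. Those called at Cul3, starting at 80293001 and 80293501, overlap too, so the 6 are not separate places.

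At the gene level with pooled calls, 6 of the 42 (18.8% of all genes were called) differed in Herb against OVA, all higher: Prdx1 (6.70 points), Arnt2 (7.06), Me1 (6.91), Ptges3 (3.36), Scin (8.90) and Fth1 (4.59). With equal weight none of the 42 was called, and Arnt2, Scin and Prdx1 had differences of -0.95, -1.08 and -0.675 points, while Me1, Ptges3 and Fth1 stayed above 0 at 2.25, 1.16 and 0.644 points.
In OVA against Saline, where 6.47% of all genes were called, Lpcat2, a lipid-remodelling enzyme, fell by 6.50 points (limma adjusted p = 0.0235) and Mafg, a partner of Nrf2, fell by 4.73 points (limma adjusted p = 0.0364), while Gpx2, a glutathione peroxidase, rose by 6.53 points (limma adjusted p = 0.0274). Lpcat2 and Gpx2 were called with equal weight too, at -8.44 and 8.23 points, and so was Prdx1 at 3.91 points, while Mafg was not. In Herb against Saline, where 25.8% of all genes were called, Cul3, Mafk, Prdx1, Me1, Scin and Gpx2 were called higher and Lpcat2 lower, and with equal weight (11.5% of all genes) Prdx1, Gpx2 and Lpcat2 among these still were. Equal weight also called Hsp90ab1 and Nedd9 higher, at 4.11 and 4.5 points, and Gsr and Abcc1 lower, at -3.86 and -4.84 points.
As a description over 10 mice, the pooled levels of Prdx1, Arnt2, Txnrd1, Scin and Sqstm1 followed the mean of the 10 members most closely, with Pearson's r of 0.933, 0.923, 0.913, 0.91 and 0.876. With equal weight their r was 0.799, 0.518, 0.385, -0.309 and 0.836, so the order depended on how calls were pooled.

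Methylation near the starts of cell type markers also moved between groups. Over the 6 of 10 leukocyte markers with windows, the mean level was 62.9 to 68.0% in Saline, 61.2 to 62.8% in OVA and 58.0 to 60.8% in Herb. Of these 6 genes 2 were higher in OVA than in Saline and 4 lower. Ptprc, which encodes the leukocyte antigen CD45, had the widest spread of means, at 63.7% in Saline, 47.0% in OVA and 44.9% in Herb, while Itgax had 82.6, 92.1 and 79.7% and Cd79a 58.4, 59.2 and 61.7%. Over 3 of 5 endothelial markers it was 20.7 to 24.2% in Saline, 27.3 to 28.8% in OVA and 25.8 to 28.4% in Herb, and over 6 of 8 epithelial markers 40.9 to 43.0%, 41.7 to 44.6% and 40.3 to 46.0%. Their part in the differences at the 10 genes was not tested.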

How the data were processed

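Lung DNA of 3 Saline, 3 OVA and 4 Herb mice was captured, bisulfite-converted and sequenced by the authors. The submitters' notes name cutadapt 1.10, Bismark 0.19.0 and methylKit 1.0.0 on mm10, where the study's methods name other versions. The deposited table holds counts of methylated, unmethylated and all CpG calls per mouse in 1000-bp windows (step 500 bp), neither normalized nor pooled. The table lists windows with calls in every mouse, so loci outside the capture are not analysed here.

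Windows were assigned to genes with RefSeq on GRCm38. Each window was tested with a likelihood-ratio test of a logistic model on pooled calls of the 2 groups, with at least 20 calls per mouse and 2 mice per group, Benjamini-Hochberg adjustment over all windows, and a call at adjusted p under 0.01 and 10 points. limma 3.58.1 (R 4.3.3) was run on log-ratios of calls (pseudocount 1) with all 10 mice and a call at adjusted p under 0.05, for windows and for 37008 genes. Exact permutation tests were two-sided over mice. Both window tests were run on simulated windows with changes larger than any seen at the members. Smaller changes and the gene-level fit were not simulated. Nothing says whether the mice shared a litter or a cage.

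All members, their start-site windows and called windows are named. Of the other pathway genes, those called at the gene level are named. The members and lists were chosen with earlier results of these data known, and windows below 10 points were chosen after their values were seen. Python 3.11.15 and scipy 1.17.1 were used otherwise.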

Additional observations from a re-analysis of the deposited data

Results flagged for a closer look

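Hmox1 had a pooled gene-level methylation of 6.63% in Herb mouse 2, while the other 3 Herb mice had 5.12, 5.33 and 5.38%. Its gap to the nearest mouse, divided by the range of the group, was barely above the 95% critical value for 4 samples. This was the only one among 34 such ratios computed over the start-site windows, called windows and gene levels, where chance alone passes about 1 in 20. All 3 non-overlapping Hmox1 windows are under 20% methylated in saline, and a cause was not tested.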

How the results depend on the processing

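For Herb against OVA, the count of 0 called member windows, higher and lower, was the same under all 12 alternatives and without any single mouse. Of these alternatives, the F test, the difference of 20 points and the gene span alone could not have raised a count of 0, since they only narrow the calls. In the same way, limma at adjusted p under 0.01 and 10 points could only narrow the limma count of 0. In OVA against Saline the 3 windows called higher became 0 with an F test that allows for spread between mice, 0 at a difference of 20 points and 0 with limma at adjusted p under 0.01 and 10 points. They became 5 with calls scaled to equal totals and 1 with windows that do not overlap, and ranged from 2 to 5 without 1 mouse (2 without Saline mouse 1, 5 without Saline mouse 3 or OVA mouse 1). The windows called lower became 1 with limma at adjusted p under 0.05 and were otherwise 0. In Herb against Saline the 3 called higher became 0 with the F test, 0 at 20 points and 0 with limma at adjusted p under 0.01 and 10 points, and ranged from 1 (without Herb mouse 4) to 5 (without Herb mouse 1 or 3). Those called lower became 1 with unweighted means over mice, 1 with calls scaled to equal totals and 2 with limma at adjusted p under 0.05, and ranged from 0 to 2 without 1 mouse. The Nfe2l2 window starting at 75700501 lost its call without Saline mouse 3 (8.44 points) or OVA mouse 3 (9.04 points). The second Nqo1 intron window fell under 10 points without Saline mouse 1 in both comparisons (9.73 and 9.42 points) and without Herb mouse 4 (9.27 points), and the Nqo1 upstream window without Saline mouse 1 (8.97 points) or Herb mouse 4 (9.63 points). The first Nqo1 intron window lost its call with the F test, at 20 points and with limma at adjusted p under 0.01, and kept it under the other alternatives run.

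The members called at the gene level in Herb against OVA, 2 with pooled calls, were 0 with the unweighted mean of windows, where the Nfe2l2 difference turned to -0.458 points. They were 0 on the gene span alone and 1 with limma on only the 2 groups, and ranged from 1 to 3 without 1 mouse. Gclc lost its call without OVA mouse 1 or 2 or any one Herb mouse (limma adjusted p of 0.0614 to 0.092). In Herb against Saline the single called member became 0 with the unweighted mean, 0 on the gene span alone, 2 with a minimum of 50 calls and 2 with only the 2 groups, and was 0 or 1 without 1 mouse. Keap1 lost its call without any 1 mouse (limma adjusted p of 0.0544 to 0.113). In OVA against Saline the count stayed at 0. The share of calls from low windows also differed between the groups, and the cause of these changes was not tested. The likeness of Scin turned to -0.309 with the unweighted mean, an alternative chosen after seeing the data.

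Start-site windows whose groups did not overlap numbered 2 instead of 1 in Herb against OVA as the mean of windows within 1000 bp, and 1 to 2 without 1 mouse (2 without OVA mouse 1 or Herb mouse 1 or 4). In OVA against Saline they numbered 2 as that mean and 3 to 6 without 1 mouse (6 without Saline mouse 1), and 0 to 1 in Herb against Saline (1 without Herb mouse 3 or 4). Leaving out a mouse makes it easier for groups not to overlap, and shares over all windows were not computed for these alternatives.

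Same-numbered mice did not deviate together over all windows (correlations of -0.0273 to 0.0785). A mouse correlated best with its own number in the other group 5 of 18 times. Whether same-numbered mice shared a cage, litter or batch is not given by the labels and was not tested. With the replicate block the window counts stayed at 3 higher in OVA against Saline, 3 in Herb against Saline and 0 in Herb against OVA, and the members called at the gene level were 1 in Herb against OVA and 0 in Herb against Saline. At the called Nfe2l2 window, the mouse with fewest calls (135) had 25.2% with a 95% Wilson interval of 18.6 to 33.1%, so differences of a few points there are within counting error. Permutation tests could not pass 0.05 for 3 against 3.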
